A study of Homo sapiens with 2 samples.

Results

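Levels of expression of 9 tight junction genes were compared between Ca9-22 cells infected with a DLEU1 lentiviral vector and Ca9-22 cells infected with a control vector. The 9 genes were the claudins CLDN1, CLDN4, CLDN7, CLDN8 and CLDN17, the membrane protein gene OCLN, and the scaffold genes TJP1, TJP3 and CGN. They were taken by name, through every non-control probe of the array that carried 1 of these gene names, which gave 11 probes of 58201 and 9 gene names of 43317. The rule itself used no measured value, but the names were listed with earlier results of these arrays known.

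Ca9-22 is an established line of oral squamous cell carcinoma (OSCC) cells. DLEU1 is a long noncoding RNA gene, and its full-length cDNA was carried by the vector, whereas the control vector was empty. Cells of both groups were selected with Blasticidin at a stated 6 mg/ml over 2 weeks, so that viral infection and drug selection were shared by the groups. Total RNA of each culture (100 ng) was hybridised, with Cy3 as its single dye, to 1 Agilent array. The sources used here did not state the promoter that drives DLEU1 in the vector, or whether the selected cells were 1 clone or a mixed population. There was 1 array per group (2 arrays, on 1 slide and in 1 scan), so no test could be made, no p-value or replicate SD is given, and precision is limited by the number of arrays. The spread between cultures was not measured.

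Tight junctions are the most apical contacts between epithelial cells and seal the space between them. Claudins are proteins that cross the membrane repeatedly and whose extracellular loops meet those of the neighbouring cell and set which ions pass. Occludin, encoded by OCLN, is another membrane protein of these contacts. The zonula occludens scaffolds ZO-1 and ZO-3, encoded by TJP1 and TJP3, and cingulin, encoded by CGN, lie under the membrane and tie the strands to actin. In stratified epithelia such as skin and oral mucosa, tight junctions are found in the upper layers, and claudin genes are differently expressed between basal and differentiated cells.

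Each of the 11 probes was a 60-base oligonucleotide, and none of their sequences was shared with another probe of the array (0 probes). The longest run of bases common to any pair of them was 9 bases over 55 pairs. The first 30 bases are printed for the probes of genes at least 2-fold higher or detected with the DLEU1 vector only, and for the CLDN4 probe that was not well above background. They are shown 5′ to 3′ as deposited, since these letters are what the array measured.
CLDN1 A_23_P57784: cccgatgctttctgtggctaaacagatgta
CLDN4 A_33_P3285545: ggggtttttcctcttccttctttgtggttt
CLDN4 A_33_P3378272: acttttctgggggacctgttcacgatgcct
CLDN17 A_23_P360924: gtgtgccacacacagataagcgaagaaata
TJP3 A_23_P108157: gccatcgagcgcctcaactatgtgcagtac

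Values are log2 levels, that is log2 of the processed signal minus the 75th percentile of the non-control probes of the same array, so that a level of 0 is a probe as bright as that percentile. Differences are the DLEU1 vector level minus the control vector level. A probe was detected where the scanner software called the majority of its spots well above background. Levels of different probes were not ranked against each other, since probes differ in how strongly they bind. In the control vector cells 47.6% of probes were detected, and 48.1% in the DLEU1 vector cells. The lowest detected levels were -4.09 and -4.04. A total of 20246 gene names were detected on both arrays, with a median difference of -0.07 and an SD over genes of 0.90. Among probes with replicated spots, the median SD of the difference over spots was 0.0543 (282 probes). Among genes with several probes, the median SD of the difference over probes was 0.23 (4674 genes), and the SD pooled over these genes was 0.47.

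DLEU1 was examined first, as the gene carried by the vector. Its brightest probe had a level of 3.17 in the control vector cells and 5.91 in the DLEU1 vector cells, which differ by 2.74 (6.67-fold). Its other probes differed by 0.85 and 0.54, in the same direction. All 9 epithelial markers (keratins, TP63, ITGA6 and ITGB4) were detected on both arrays, as labelled for an epithelial line. Of 11 mesenchymal, endothelial and immune markers on the array, the control vector cells gave a detected signal for 6 and the DLEU1 vector cells for 7, and the fibrillar collagen genes COL1A2 and COL3A1, the endothelial gene PECAM1 and the T cell gene CD3E were detected on neither. Summed over these markers, the processed signal of control vector cells was 623 and that of DLEU1 vector cells 6047. Most of the latter sum came from the collagen gene COL1A1, with levels of 0.47 and 4.47. Over the epithelial markers the sums were 216201 and 501052. The part of the non-epithelial signals in the junction values was not tested. Such a sum weights the genes by how brightly their probes bind and does not measure the share of a cell type.

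Of the 9 tight junction genes, 6 were detected on both arrays, and all 6 levels were higher with the DLEU1 vector, except that TJP1 became lower when the arrays were scaled to their spike-in probes. Another 2 genes, CLDN17 and TJP3, were detected with the DLEU1 vector only, none was detected with the control vector only (0 genes), and CLDN8 was detected on neither array. Of all 43317 gene names, 2.86% (1238) had a detected signal with the DLEU1 vector only and 2.44% (1059) with the control vector only. A difference of at least 2-fold was reached by CLDN1 and CLDN4, which is 2 of 6 genes, and by 0 genes in the lower direction. Over all gene names detected on both arrays, 9.18% (1858 of 20246) passed 2-fold in the higher direction and 9.78% (1981) in the lower one. With spike-in scaling CLDN4 no longer reached 2-fold, which left 1 of the 6 genes, and the counts over all gene names were 931 and 4830. With the genes detected on 1 array counted at their lower bound, TJP3 was added, giving 3 genes, against 10.2% of all gene names counted that way (2299 of 22543). The median difference over the 6 genes was 0.69, it was 0.69 with the bounds included, and it was 0.24 with spike-in scaling. Across all gene names, 9278 were higher and 10968 lower.

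**Figure D1:**
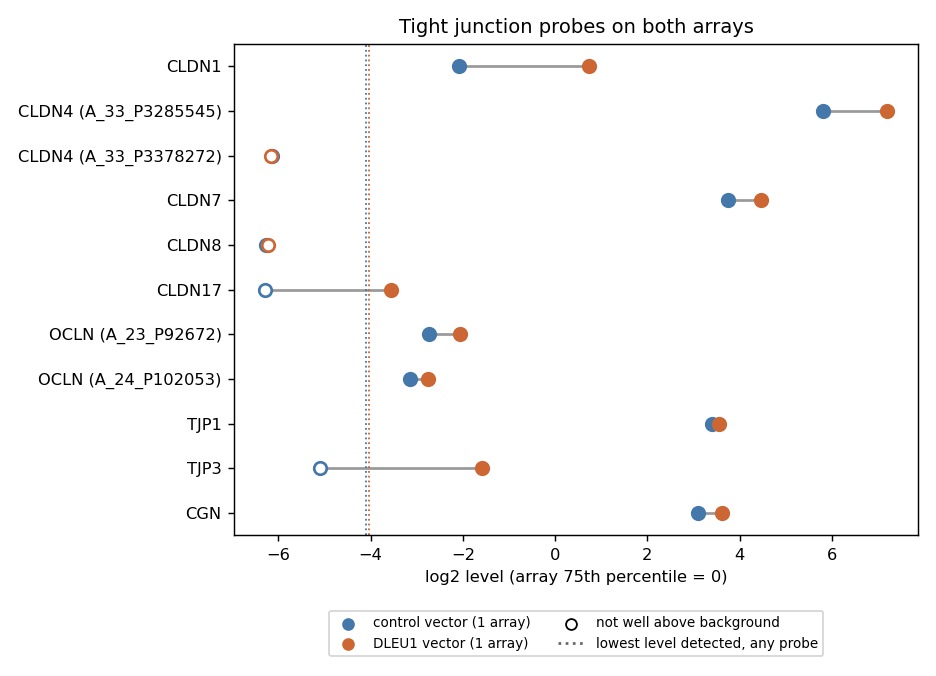
Log2 level of each of the 11 probes (x axis, 75th percentile of the array at 0) with the control vector (blue) and with the DLEU1 vector (orange), 1 array each, with open circles for probes not well above background and dotted lines at the lowest level detected on each array. CLDN17 and TJP3 are open with the control vector (-6.28 and -5.10) and filled with the DLEU1 vector (-3.56 and -1.59), and CLDN8 and the second CLDN4 probe are open on both.

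Among the claudins, CLDN1 encodes a claudin needed for the epidermal water barrier. Its probe A_23_P57784 (NM_021101, chr3:190024001-190024060, hg19, minus strand) gave a processed signal of 57.1 in the control vector cells and 392 in the DLEU1 vector cells. The levels were -2.08 and 0.73, a difference of 2.82 or 7.04-fold, with an error of 0.22 from the software's own model of spot error. The difference ranked at percentile 99.3 among gene names detected on both arrays. It was 1.99 when the background was corrected by normexp, a method that damps the differences of dim spots.

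CLDN4 encodes a claudin of many simple and differentiated epithelia and is a receptor for Clostridium perfringens enterotoxin. Its probe A_33_P3285545 (NM_001305, chr7:73246907-73246966, hg19, plus strand) gave a signal of 13583 in the control vector cells and 34827 in the DLEU1 vector cells. The levels were 5.81 and 7.21, a difference of 1.40 or 2.63-fold, with a software error of 0.20. This signal was far above the background on both arrays and was not saturated. The difference was 0.94, short of 2-fold, when the arrays were scaled to their spike-in probes. A second CLDN4 probe, A_33_P3378272, was designed to the transcript ENST00000431918 upstream of the first (chr7:73244259-73244318, hg19) and was not well above background on either array, with signals of 3.45 and 3.30. The CLDN4 values therefore rest on 1 probe.

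CLDN7, a claudin that is often found along the basolateral membrane as well as in tight junctions, had levels of 3.75 and 4.47 on its probe A_23_P164284 (NM_001307). The difference was 0.71 or 1.64-fold, with a software error of 0.20. The probe covers 165 bases of the genome with 60 bases (chr17:7163822-7163986, hg19, minus strand), so its letters are not contiguous there. CLDN7 was higher with the DLEU1 vector by less than 2-fold, and by 0.26 with spike-in scaling. This is a difference between single cultures on 1 probe, and the spread between cultures was not measured.

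CLDN17 encodes a claudin that forms an anion channel. Its probe A_23_P360924 (NM_012131, chr21:31538269-31538328, hg19, minus strand) gave a signal of 3.11 with the control vector, not well above background, and of 20.0 with the DLEU1 vector. The levels were -6.28 and -3.56. Set against the lowest detected level of the control vector array, CLDN17 was at least 1.44-fold higher with the DLEU1 vector. The detected level was itself close to that limit. The bound of 0.53 on the log2 scale became 0.25 with normexp and 0.069 with spike-in scaling. CLDN8, a claudin gene on the same chromosome that is known from the kidney tubule, was not well above background on either array, with signals of 3.16 and 3.14 on its probe A_23_P427014 (NM_199328, chr21:31586966-31587025, hg19, minus strand). No fold is given for it.

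OCLN had a pair of probes to the same transcript (NM_002538). The probe A_23_P92672 (chr5:68849515-68849574, hg19, plus strand) had levels of -2.74 and -2.07, a difference of 0.68 or 1.60-fold, with a software error of 0.27. The probe A_24_P102053, which covers 2044 bases of the genome (chr5:68847386-68849429), had levels of -3.14 and -2.76, a difference of 0.39 or 1.31-fold, with a software error of 0.31. Both OCLN probes were dim, with signals of 27.4 to 56.3, and both were higher with the DLEU1 vector, by less than 2-fold. Both differences were larger than their software errors, the second by little. With spike-in scaling the difference of A_23_P92672 was 0.22, below its software error. That scaling lowers each difference by the same amount, which exceeds the difference of A_24_P102053. The direction of the second probe was therefore not settled.

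Among the scaffolds, the largest contrast was that of TJP3, the gene of ZO-3. Its probe A_23_P108157 (NM_001267560, chr19:3746516-3746575, hg19, plus strand) gave a signal of 7.07 with the control vector, not well above background, and of 78.3 with the DLEU1 vector. The levels were -5.10 and -1.59. TJP3 was at least 5.66-fold higher with the DLEU1 vector, a lower bound of 2.50 on the log2 scale. This bound was 1.003 with the normexp correction.

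TJP1, the gene of ZO-1, had levels of 3.41 and 3.55 on its probe A_24_P193435 (NM_003257, chr15:29992527-29992586, hg19, minus strand). The difference of 0.14 (1.10-fold) was smaller than its software error of 0.20. It was 0.34 with loess and -0.32 with spike-in scaling, so neither its size nor its direction was settled. CGN had levels of 3.10 and 3.61 on its probe A_33_P3329974 (NM_020770, chr1:151511070-151511129, hg19, plus strand), a difference of 0.51 or 1.42-fold, with a software error of 0.20. With spike-in scaling the CGN difference was 0.050, below its software error.

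**Figure D2:**
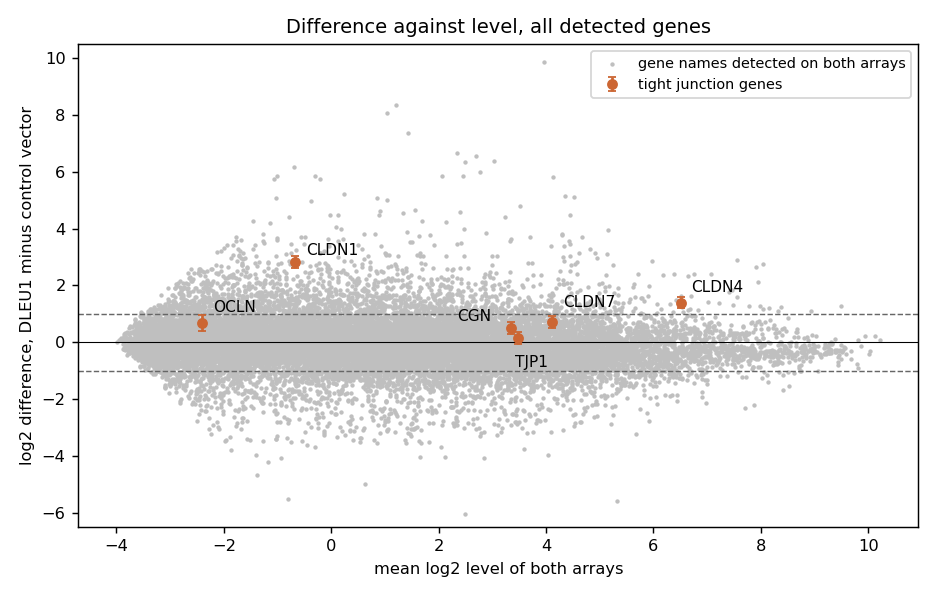
Log2 difference, DLEU1 vector minus control vector (y axis), against the mean log2 level of both arrays (x axis) for the 20246 gene names detected on both arrays (grey) and for the 6 tight junction genes among them (orange, bars are the software error of the difference, 1 array per group). CLDN1 (2.82) and CLDN4 (1.40) lie above the dashed line of 2-fold, while CLDN7, OCLN, CGN and TJP1 lie between 0 and that line (TJP1 at -0.32 with spike-in scaling). The y axis spans all the genes plotted.

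Each difference depended on the scaling of the arrays. Under up to 12 other settings that changed the scaling, the background, the filter or the choice of probe, CLDN1 differed by 1.99 to 2.93, CLDN4 by 0.94 to 1.68, CLDN7 by 0.26 to 0.94, OCLN by 0.22 to 0.79 and CGN by 0.050 to 0.70. TJP1 differed by -0.32 to 0.34. The lowest values of CLDN4, CLDN7, OCLN, CGN and TJP1 came from spike-in scaling, which moved the median of all gene names from -0.07 to -0.53 and lowered every difference by the same amount.

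**Figure D3:**
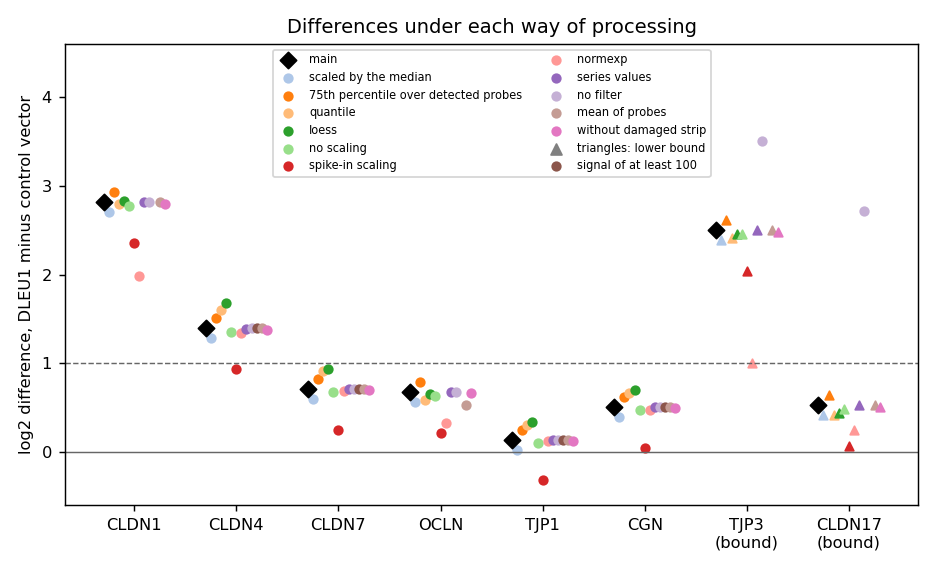
Log2 difference, DLEU1 vector minus control vector (y axis), of the 8 tight junction genes detected on at least 1 array, as reported (black diamonds) and under each other way of processing (coloured points, triangles for lower bounds; the diamonds of TJP3 and CLDN17 are lower bounds too). CLDN1 and TJP3 stay at or above the dashed line of 2-fold wherever they have a value, CLDN4 falls to 0.94 with spike-in scaling, and TJP1 crosses 0 there (-0.32).

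The other claudins were then examined, to place the 5 claudin genes within their family. Of 19 other claudin family genes, 9 were detected on both arrays, of which 6 were higher and 3 lower, and 1 passed 2-fold upward and 0 downward. The median difference was 0.097, and it was -0.36 with spike-in scaling. With that scaling 0 were at least 2-fold higher and 2 lower. CLDN16, known for the handling of magnesium in the kidney, had levels of -3.16 and -2.08, a difference of 1.08, and CLDN9 differed by 0.59. CLDN2, which forms a cation channel in leaky epithelia, had levels of -1.72 and -2.70, a difference of -0.98, and CLDN10 differed by -0.55. CLDN3, CLDN6 and CLDN24 were detected with the control vector only, and their levels were 1.78-fold, 1.57-fold and 1.39-fold higher there. Their levels with the DLEU1 vector (-4.02, -3.71 and -3.97) were just above the lowest detected level of that array (-4.04). These folds are therefore plain differences near the limit of detection and not lower bounds. Another 7 were detected on neither array. No claudin gene other than CLDN17 was detected with the DLEU1 vector only. However, CLDN11, among those detected on neither array, had levels of -5.97 and -3.90, close to those of CLDN17 (-6.28 and -3.56). The 2 genes were set apart only by the call of the software near the limit of detection.

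**Figure D4:**
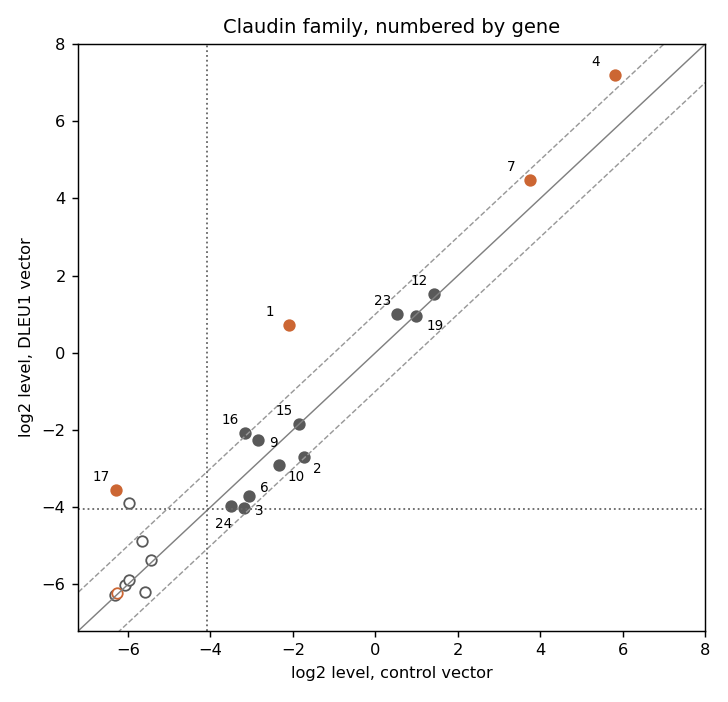
Log2 level with the DLEU1 vector (y axis) against log2 level with the control vector (x axis) for claudin genes, 1 array each, labelled by gene number, in orange for the 5 claudins studied and in grey for the others, with open circles for genes detected on neither array. The solid line marks equal levels, the dashed lines 2-fold differences and the dotted lines the lowest detected level of each array. CLDN1 and CLDN4 lie above the upper dashed line, CLDN16 just above it (1.08), and CLDN17 left of the dotted limit of the control vector array.

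Some claudin genes lie as neighbours in the genome, and their values were set side by side. CLDN1 and CLDN16 have probes 104 kb apart on chromosome 3, and both were higher with the DLEU1 vector (2.82 and 1.08). CLDN3 and CLDN4 have probes 63.6 kb apart on chromosome 7, and they differed in direction, since CLDN3 was detected with the control vector only and CLDN4 was higher with the DLEU1 vector by 1.40. CLDN17 and CLDN8, with probes 48.7 kb apart on chromosome 21, were detected on 1 array and on neither. Neighbours therefore did not share 1 pattern.

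Beyond the claudins, 12 other membrane proteins of the tight junction had 10 genes detected on both arrays, of which 2 were higher and 8 lower, with a median difference of -0.23 (-0.69 with spike-in scaling, and 3 genes at least 2-fold lower in place of 1). F11R, the gene of junctional adhesion molecule A, differed by 0.69, from 6.86 to 7.56, and the virus receptor gene CXADR by 0.088 on the probe used and 0.69 on its other detected probe. ILDR2, of the angulin family of tricellular contacts, differed by -1.22 and was the 1 gene of this list at least 2-fold lower. EPCAM, an adhesion molecule that binds claudin-7, differed by -0.78, from 6.22 to 5.44, whereas CLDN7 itself was higher.

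Of 23 other scaffold and polarity genes, 22 were detected on both arrays, with 13 higher, 9 lower and a median difference of 0.0995 (-0.36 with spike-in scaling). CGNL1, which encodes paracingulin, a relative of cingulin, had levels of -2.69 and -0.37, a difference of 2.33. On the probes used, it was the 1 gene of this list at least 2-fold higher. PARD3 and ARHGEF18 differed by 0.45 and 0.76 on the probes used and by 1.10 and 1.05 on another detected probe. AMOTL1, an angiomotin-like scaffold, differed by 0.97 on the probe used and by -0.0079 on its other detected probe. ARHGEF2, a guanine nucleotide exchange factor that cingulin binds, differed by -0.56, and TJAP1 by -0.52.

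Over all 54 other tight junction genes (claudins, membrane proteins, scaffolds and polarity proteins), 41 were detected on both arrays. Of these, 21 were higher and 20 lower on the probes used, and the 2-fold threshold was passed by 2 upward and 1 downward. Their median difference was 0.0030. Spike-in scaling lowers every difference by the same amount, which puts this median below 0 and leaves fewer of the 41 genes higher. As shares, those at least 2-fold higher were 4.88% of the 41 genes, beside 9.18% of all gene names. With spike-in scaling 1 gene passed upward and 6 downward (2.44% and 14.6%), beside 931 and 4830 of the 20246 gene names. The 9 genes were named with earlier results of these arrays known, so these values are no independent standard for theirs.

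**Figure D5:**
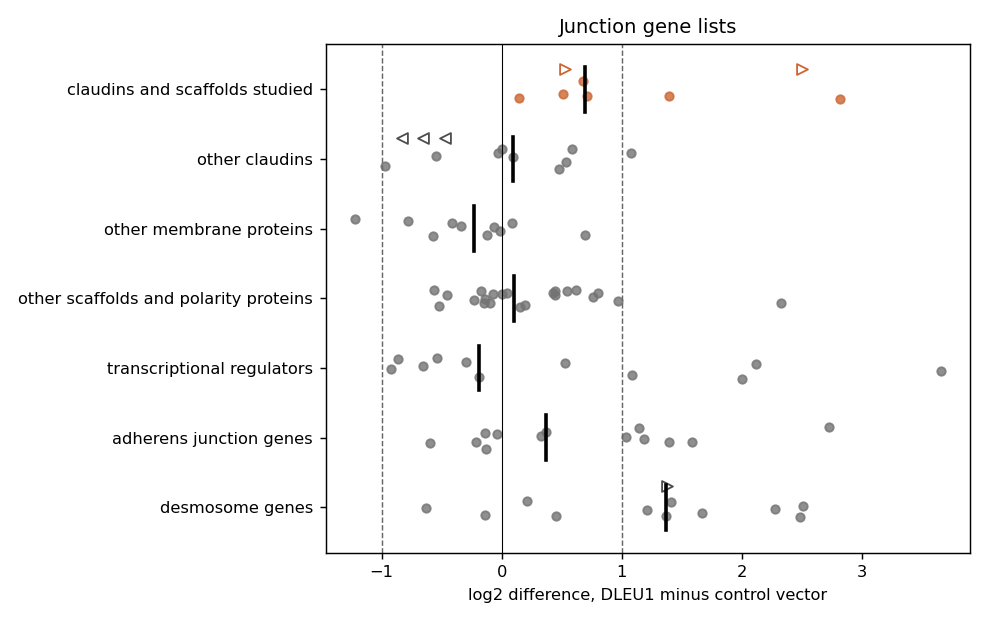
Log2 difference, DLEU1 vector minus control vector (x axis), of each gene detected on both arrays (dots) in 7 lists of junction genes and their regulators, with the median of each list as a black bar and dashed lines at 2-fold (1 array per group). Open triangles are genes detected on 1 array only, at their lower bound or, for CLDN3, CLDN6 and CLDN24, at their difference. The 6 genes studied lie between 0.14 and 2.82, the other tight junction lists lie on both sides of 0, and the desmosome genes have the median 1.37. With spike-in scaling every point moves left by the same amount, and the medians of the adherens junction genes, the other claudins and the other scaffolds are below 0.

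Transcriptional regulators known to act on junction genes were also read. Of 12, 11 were detected on both arrays, with 5 higher, 6 lower, 4 at least 2-fold higher and a median difference of -0.19 (3 genes at least 2-fold lower and -0.64 with spike-in scaling). GRHL3, a grainyhead-like factor of the epidermal barrier, had levels of -2.85 and 0.82, a difference of 3.66, and OVOL1, an epithelial zinc finger repressor, had levels of 1.18 and 3.30, a difference of 2.12. ZEB1 and SNAI1, which repress epithelial junction genes, differed by -0.92 and -0.87 on the probes used, and the other ZEB1 probe by -1.02.

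Other cell contacts were read beside the tight junction. All 13 adherens junction genes were detected on both arrays, with 8 higher, 5 lower, 6 at least 2-fold higher and a median difference of 0.37 (2 higher, 1 lower and -0.087 with spike-in scaling). NECTIN4, a nectin adhesion molecule, differed by 2.72, and JUP, the gene of plakoglobin, by 1.58, while VCL (vinculin) differed by -0.60 and NECTIN2 by -0.21 on the probe used and 0.26 on its other one. Of 14 desmosome genes, 11 were detected on both arrays, with 9 higher, 2 lower, 7 at least 2-fold higher and a median difference of 1.37. With spike-in scaling 4 were at least 2-fold higher and 1 lower, with a median of 0.91. The desmosomal cadherin genes DSG3 and DSC2 differed by 2.51 and 2.49, and the plakophilin genes PKP2 and PKP3 by -0.63 and -0.14. DSC1 was detected with the DLEU1 vector only, at least 2.60-fold higher (a bound of 1.38 on the log2 scale). Spike-in scaling lowers this bound by the common amount, to below 2-fold.

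Among the epithelial markers, read beside the junction genes, 6 of 9 were higher and 3 lower, with a median difference of 0.96. The counts and medians of the marker lists were not redone with spike-in scaling. That scaling lowers every difference by the same amount, which exceeds the difference of KRT8 (0.18). EPCAM (-0.78) and CDH1 (1.04), also listed as epithelial markers, were counted with the membrane proteins and the adherens junction genes. KRT17, a keratin of activated keratinocytes, and KRT14, a keratin of basal ones, differed by 3.09 and 2.85, while the simple epithelial keratin KRT18 differed by -0.93 and the integrin gene ITGA6 by -0.23. Of the mesenchymal, endothelial and immune markers, 6 were detected on both arrays, with 3 higher and 3 lower. COL1A1, which encodes a chain of type I collagen, had levels of 0.47 and 4.47, a difference of 3.99. VWF, an endothelial gene, differed by 3.70 on the probe used and by -0.072 on its other detected probe. CD14 and CDH5 differed by -1.60 and -0.59. LUM, which encodes the matrix proteoglycan lumican, was detected with the DLEU1 vector only, at least 2.47-fold higher (a bound of 1.30 on the log2 scale). This bound too falls below 2-fold with spike-in scaling. Whether a shift in the mix of cells had a part in the junction values was not tested.

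The sequence before the start of the genes was read from the RefSeq promoter table (GRCh38.p14), which held 8 of the 9 genes. For the genes at least 2-fold higher or detected with the DLEU1 vector only, the 250 bases before the start site are shown 5′ to 3′ on the strand of the gene, with capitals for motif matches, to show how unlike these promoters are. TJP3 has 2 start sites in the table, and the first is shown.
CLDN1, chr3:190322447-190322696, minus strand: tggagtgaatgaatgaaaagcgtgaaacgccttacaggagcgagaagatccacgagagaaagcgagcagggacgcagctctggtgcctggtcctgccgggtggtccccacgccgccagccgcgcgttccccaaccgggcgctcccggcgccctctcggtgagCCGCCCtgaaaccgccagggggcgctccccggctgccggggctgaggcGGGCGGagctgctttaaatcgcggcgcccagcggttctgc
CLDN4, chr7:73830746-73830995, plus strand: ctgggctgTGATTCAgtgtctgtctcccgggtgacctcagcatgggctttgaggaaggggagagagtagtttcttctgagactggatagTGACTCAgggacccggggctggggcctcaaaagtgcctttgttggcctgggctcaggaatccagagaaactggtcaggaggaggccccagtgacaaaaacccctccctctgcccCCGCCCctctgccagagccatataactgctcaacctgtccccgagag
CLDN17, chr21:30166806-30167055, minus strand: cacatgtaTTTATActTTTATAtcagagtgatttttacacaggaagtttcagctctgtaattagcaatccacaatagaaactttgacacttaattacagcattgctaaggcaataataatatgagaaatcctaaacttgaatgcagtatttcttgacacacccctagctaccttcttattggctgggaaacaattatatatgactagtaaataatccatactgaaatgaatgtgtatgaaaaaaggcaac
TJP3, chr19:3708134-3708383, plus strand: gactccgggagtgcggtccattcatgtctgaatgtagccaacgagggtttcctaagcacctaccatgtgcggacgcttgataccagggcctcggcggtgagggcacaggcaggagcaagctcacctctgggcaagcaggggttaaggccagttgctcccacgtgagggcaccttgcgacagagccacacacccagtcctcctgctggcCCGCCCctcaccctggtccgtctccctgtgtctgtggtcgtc

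The motifs searched, on both strands, were the GC box GGGCGG, the E-box CAGGTG that Snail and ZEB factors can bind, the grainyhead motif AACCNGGTT, the interferon response core GAAANNGAA, the TATA box TATAAA and the AP-1 motif TGANTCA. Over 35116 promoters of this length, 42.6% held the GC box, 17.5% the E-box, 0.202% the grainyhead motif, 6.88% the interferon core, 10.7% the TATA box and 6.57% the AP-1 motif. The CLDN1 window held 2 GC boxes, with a GC content of 68.8%. The CLDN4 window held 2 AP-1 matches and 1 GC box, with a GC content of 58.8%, close to the median of 58% over all promoters. The CLDN17 window held 2 TATA matches near its upstream end, no CG dinucleotide (0) and a GC content of 32%, which placed it at percentile 2.64. The TJP3 window held 1 GC box and a GC content of 62.8%. None of the 6 motifs was present in all 4 windows, and no window of the 8 genes in the table held the grainyhead motif (0 matches). The E-box was in none of the 4 windows shown. It was present in windows of CLDN7, OCLN and TJP1 and in the TJP3 window not shown. Motif matches describe the letters of these windows, and no binding was measured in these samples.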

How the data were processed

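RNA of 2 cultures of Ca9-22 cells, 1 per vector, was measured on SurePrint G3 Human GE arrays. The authors deposited scanner files made with Agilent Feature Extraction 10.7.3.1 (10.7 in the submitters' processing notes). Per the file headers, the processed intensity was background-subtracted and detrended over the array, dim spots received a surrogate value, and probe positions are on hg19. The series values the authors deposited held the same intensity, rounded (within 0.497%, with medians of 14.3 and 15), were not log-transformed, and were not scaled between the arrays. The authors named GeneSpring GX for their analysis, and no fold threshold was given in the sources used here.

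Here, control spots and outlier spots (84 and 103) were left out, spots of a probe were averaged, the intensity was taken to log2, and the 75th percentile of the array (7.92 and 7.88) was subtracted. The deposited intensity is linear, and every log2 value was computed here. The value of a gene was its brightest probe detected on both arrays. A difference was called at 2-fold. For a gene detected on 1 array, the fold was a lower bound against the higher of the lowest detected level (signals of 14.2 and 14.3) and its own level on the dim array. The software error of a difference combined the errors of the processed signal on both arrays. The steps were tested on simulated data with changes of 2 on the log2 scale, up or down, put into bright probes only. That test does not cover dim probes or smaller differences. Alternatives were other scalings, normexp (offset 50), loess (span 0.3), the series values, other filters on dim probes (none, or 100 as the lowest signal), averaging a gene's probes, leaving out a damaged strip of the DLEU1 vector array (columns 36 to 40), and thresholds of 1.5-fold and 3-fold. In the strip, 6.57% of 624 lit probes were at least 8-fold lower, against 0.753% outside, and no tight junction probe of the 9 genes lay in it (0 probes). Its columns and the spread used to judge a shift (0.23 log2) were set after the arrays were seen.

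The 9 genes and the lists were chosen with earlier results of these data known. Named genes were the 9 genes, DLEU1 and, in each other list, the 2 largest increases and decreases among genes detected on both arrays with every gene detected on 1 array only. The markers named as undetected, and PARD3, ARHGEF18, CDH1, CLDN11 and KRT8, were added after their values were seen. Another gene is not reported here. Exon and UTR annotation on hg19 and protein sequences were not used here. Python 3.11.15, numpy 2.4.6, pandas 2.3.3, R 4.3.3 and limma 3.58.1 (normexp, quantile and loess) were used.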

Additional observations from a re-analysis of the deposited data

How the results depend on the processing

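No paired analysis was possible because each group had 1 array. Over 14 alternatives, 245 of 294 counts and medians, of the 9 genes as a set and of the other lists, stayed within 1.5 times (counts) or the spread between probes of 0.23 (medians). Of the 92 differences or bounds of single genes, 77 stayed within 0.23. The others were 8 values with spike-in scaling, CLDN4 with loess (1.68), CLDN1, CLDN17, OCLN and TJP3 with normexp (1.99, 0.25, 0.33 and 1.003), and CLDN17 and TJP3 without the filter (2.72 and 3.51). CLDN1 was at least 2-fold higher in 11 of 11 alternatives that gave a value, TJP3 in 11 of 11 and CLDN4 in 11 of 12. A required signal of at least 100 gave CLDN1 and TJP3 no value. Several alternatives moved all differences by a common amount, so these counts are not independent checks.

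Spike-in scaling moved most values. Before scaling, the spike-in probes were brighter on the DLEU1 vector array by 0.42 on the log2 scale, and the cause was not tested. With it, the 9 genes had 1 detected on both arrays and at least 2-fold higher, and a median of 0.24. The other claudins had 0 higher, 2 lower and a median of -0.36, and the other membrane proteins 3 lower and a median of -0.69. The other scaffolds had 1 lower and a median of -0.36, the regulators 3 lower and a median of -0.64, the adherens junction genes 2 higher, 1 lower and a median of -0.087, and the desmosome genes 4 higher, 1 lower and a median of 0.91. Over all gene names 931 were higher and 4830 lower.

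Other scalings moved counts by 1 or 2 genes. The other claudins had 0 higher and 1 lower with median scaling and with quantiles, and 1 lower with no scaling. The regulators had 1 lower with median scaling. The other scaffolds had 2 higher with the percentile over detected probes, 2 with quantiles and 3 with loess, which also gave the adherens junction genes a median of 0.61. With normexp the other claudins had 0 higher.

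Without a filter on dim probes, 4 of the 9 genes and 2 other claudins were at least 2-fold higher, beside 4232 of 43317 gene names. Among the 4, CLDN17 and TJP3 were then set against probes not above background. With a signal of at least 100 required on both arrays, which drops CLDN1, TJP3, CLDN17 and OCLN and by construction gives no bounds, 1 of the 4 genes left was higher, beside 1026 of 14112 gene names, and the other claudins and the other scaffolds had 0 higher each. At 1.5-fold, 4 of the 6 genes detected on both arrays were higher, beside 3731 of 20246 gene names, and 5 with the bounds included. The other claudins then had 2 higher and 1 lower, the other membrane proteins 1 and 2, and the other scaffolds 5 higher. The regulators had 3 lower, the adherens junction genes 1 lower and the desmosome genes 1 lower. At 3-fold, 1 of the 6 genes was higher, beside 774 gene names, the other claudins had 0 higher, the other membrane proteins 0 lower, the adherens junction genes 1 higher and the desmosome genes 4 higher. Signal over background limits CLDN17, OCLN, TJP3 and CLDN1, which were dim on at least 1 array.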
